A study of Mus musculus with 7 samples.

Results

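Genes of intestinal drug metabolism, and the receptor that controls several of them, were followed across 3 diets in sorted mouse crypt cells. They are 7 cytochrome P450 genes of the Cyp3a, Cyp2b and Cyp2c families (Cyp3a11, Cyp3a13, Cyp3a25, Cyp2b10, Cyp2c29, Cyp2c65 and Cyp2c66), the P450 gene Cyp1a1, the efflux pump gene Abcb1a and the receptor gene Nr1i2. They were chosen by symbol, and make up 10 of the 37310 genes in the count table. All 10 were among the 14626 genes with enough counts to be tested. The mice carried BmicreERT2, an inducible Cre recombinase at the Bmi1 locus, and a Rosa26RFP reporter, in all 3 groups, so that red fluorescence marked cells in which Bmi1 had driven Cre, and their descendants. They received a diet from weaning to an age of 3 months. AIN76A, in 2 libraries, is a purified control diet, NWD1, in 3 libraries, is a Western-style diet richer in fat and poorer in methyl donors, calcium and vitamin D3, and NWD2, in 2 libraries, is NWD1 to which calcium and vitamin D3 were added back. Intestinal cells with high red fluorescence that carried Epcam, an epithelial surface protein, and lacked CD45, a leukocyte protein, were sorted and sequenced in bulk. All mice were labelled male except that of NWD1 replicate 2. Whether the libraries are from separate animals is not said in the labels, so p-values measure only the spread between these samples.

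Cytochromes P450 are haem enzymes of the endoplasmic reticulum that oxidise drugs, steroids, bile acids and fatty acids, with electrons passed on by the reductase Por. In the small intestine they act in the epithelium, mostly in absorptive enterocytes, beside P-glycoprotein, the product of Abcb1a, which pumps drugs back into the lumen. The pregnane X receptor, product of Nr1i2, binds DNA with the retinoid X receptor and induces Cyp3a, Cyp2b, Cyp2c and Abcb1a genes when it meets foreign compounds or bile acids. The vitamin D receptor can act on some of the same sites, and Cyp3a11 is among its textbook targets in intestine. The aryl hydrocarbon receptor instead controls Cyp1a1.

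Total counts ran from 14034315, in NWD1 replicate 3, to 77959407, in NWD2 replicate 2, with the other 5 libraries between 39657707 and 71331627. NWD2 replicate 2 stood apart. Its TMM scaling factor, which corrects CPM (counts scaled to the depth of a library) for its make-up, was 0.797 against 0.951 to 1.09 elsewhere, and its Epcam was 225 CPM against 510.0 to 1338 elsewhere. The diet of NWD1 replicate 3 is less certain than that of the others, because the deposited TPM table has no column for it and has 1 column headed as a further NWD2 replicate. Bmi1 itself had 2.12 to 5.25 CPM. Summed CPM of marker lists ranged from 52949 to 123804 for 20 absorptive enterocyte genes, from 10990 to 40178 for 8 Paneth, from 5293 to 19019 for 8 goblet, from 473 to 2285 for 10 enteroendocrine and from 63.1 to 321 for 8 tuft cell genes. The crypt base stem, reserve stem and cycling cell lists summed to 352 to 1163, 79.4 to 123 and 179 to 310.0 CPM. The proximal small intestinal list summed to 6862 to 18374 CPM, the ileal list to 57.2 to 319 CPM and the colonic list to 108 to 243 CPM, with the colonic Car1 and Hoxb13 at 0 counts in all 7 libraries. Markers of the epithelial sort summed to 3628 to 5231 CPM, those of leukocytes to 12.9 to 30.7 CPM and those of stroma and endothelium to 0.144 to 0.997 CPM. The hepatocyte list summed to 610 to 1450 CPM, nearly all of it Cps1, which the intestine also expresses, and albumin had 0.371 to 3.80 CPM.

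By mean level per length of transcript, the Cyp3a genes were the most abundant of the 10. In TPM (the deposited values that allow for gene length, here for the 6 libraries that have them), Cyp3a13 averaged 812 ± 290 TPM (SD, n = 6), Cyp3a11 575 ± 323, Cyp3a25 412 ± 183, Cyp2c65 377 ± 115 and Cyp2b10 241 ± 127. A wide step separated these from Cyp2c66 at 46.9 ± 16.3, Abcb1a at 32.9 ± 15.5 and Nr1i2 at 28.1 ± 4.74 TPM. Cyp2c29, a major P450 of mouse liver, reached only 2.94 ± 1.97 TPM, and Cyp1a1 0.111 ± 0.169 TPM. Cyp3a13 exceeded Cyp3a11, Cyp2c65 exceeded Cyp2b10, and Cyp2b10 exceeded Cyp2c66 in 6 of 6 libraries. The order of other neighbours was less firm. Cyp3a11 exceeded Cyp3a25 in 4, Cyp3a25 exceeded Cyp2c65 in 5, Cyp2c66 exceeded Abcb1a in 5, and Abcb1a exceeded Nr1i2 in 3 of 6 libraries. Beyond neighbours, Cyp2c65 exceeded Cyp3a11 in both AIN76A libraries, at 268 and 383 against 218 and 336 TPM. It also did so in NWD1 replicate 1, at 418 against 341 TPM. Differences in level between genes were not tested.

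**Figure D1:**
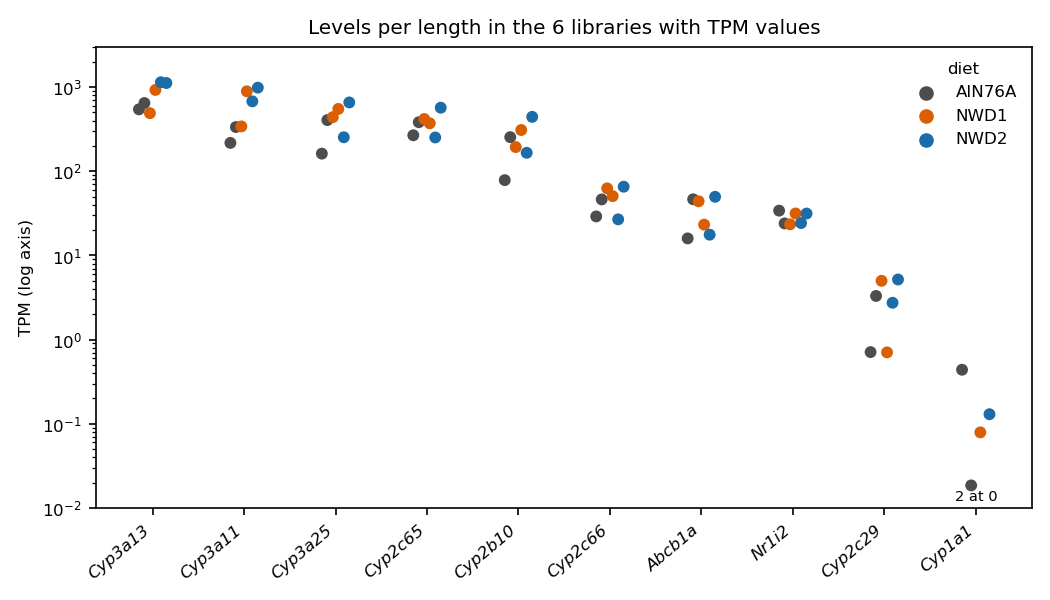
TPM of the 10 genes on a log axis, 1 point per library in the 6 libraries with TPM values, coloured by diet. Means fall from 812 TPM for Cyp3a13 to 0.111 TPM for Cyp1a1, which was at 0 in 2 libraries, and Abcb1a and Nr1i2 overlap.

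With NWD1 compared with AIN76A, no P450, efflux or receptor gene passed the test. Cyp3a11 had the largest difference, a fitted log2 fold change of 1.11, and the other Cyp3a genes, Cyp3a13 and Cyp3a25, had fold changes above 0 with libraries of the 2 diets that overlapped. Nr1i2 and Cyp1a1 had negative fold changes. In edgeR's quasi-likelihood test with Benjamini-Hochberg adjustment over all genes, 0 of the 10 had an adjusted p under 0.05, as did 0% of all genes tested, and the lowest adjusted p among the 10 was 0.878. At an unadjusted p under 0.05, 1 of the 10 was higher, against 2.52% of all genes tested, and 500 genes, or 3.42%, passed in either direction. The DESeq2 Wald test put 662 genes under that unadjusted level and called 1 gene, none of the 10. The NWD1 libraries lay above both AIN76A libraries for 2 of the 10, Cyp3a11 and Cyp2c66, against 11.4% of all genes tested. Fold changes were above 0 in 8 of the 10, against 50.6% of all genes, with a median of 0.19 against 0.01. With 1 library of these diets left out 7 or 8 of the 10 were above 0, 8 of them without NWD1 replicate 3. The median was 0.78 without AIN76A replicate 2, 0.30 without NWD1 replicate 2 and 0.37 with a replicate block. In bulk RNA, fewer cells of a type and less RNA per cell cannot be told apart, here and in what follows.

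With NWD2 compared with AIN76A, Cyp3a11 and Cyp3a13 were higher in both NWD2 libraries than in either control, and neither passed the test. Their fitted log2 fold changes were 1.66 and 0.96. Both AIN76A libraries carried the i5 sequencing index N503 and both NWD2 libraries N504. Within these 2 diets, diet and index cannot be told apart. Again 0 of the 10 had an edgeR adjusted p under 0.05, against 0% of all genes tested, with a lowest adjusted p of 0.955. At an unadjusted p under 0.05, 2 of the 10 were higher, against 1.18% of genes, while 560 genes, or 3.83%, passed in either direction. DESeq2 placed 703 genes under that unadjusted level and called 52, none of the 10. The diets did not overlap, with NWD2 higher, for 2 of the 10, against 13.2% of genes. Fold changes were above 0 in 8 of the 10, against 47.4% of genes, with a median of 0.63 against -0.03. That count rested on 1 library, since without NWD2 replicate 2 it was 3 of 10, with a median of -0.29. Without NWD2 replicate 1, 9 of the 10 were above 0, against 42.0% of genes, with a median of 0.97 against -0.15. Without AIN76A replicate 2 the median was 0.96.

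NWD2 was set against NWD1, from which it differs in added calcium and vitamin D3. Of the 10 genes Cyp3a13 alone had both NWD2 libraries above all 3 NWD1 libraries, at a fitted log2 fold change of 0.78. Diet and i5 index largely coincide here too, since of the NWD1 libraries only replicate 3 carried N504, the index of both NWD2 libraries. None of the 10 had an edgeR adjusted p under 0.05 (0 of 10, against 0% of genes), with a lowest adjusted p of 0.607. At an unadjusted p under 0.05, 1 of the 10 was higher, against 1.14% of genes, and 1154 genes, or 7.89%, passed in either direction. DESeq2 found 1374 genes at that unadjusted level and called 174, none of the 10. Diets that did not overlap, with NWD2 higher, made up 1 of the 10 and 10.8% of genes. Fold changes were above 0 in 8 of the 10 and in 53.5% of genes, with medians of 0.28 and 0.05. Without NWD2 replicate 2 the count was 2 of 10 and the median -0.21, without NWD2 replicate 1 they were 9 of 10 and 0.81, and without NWD1 replicate 3 they were 9 of 10 and 0.43. With scaling by library size alone the count was 4 of 10, a scaling that shifted the median of all genes by -0.24. The 3 comparisons share libraries with each other, and the first and the second share both controls.

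**Figure D2:**
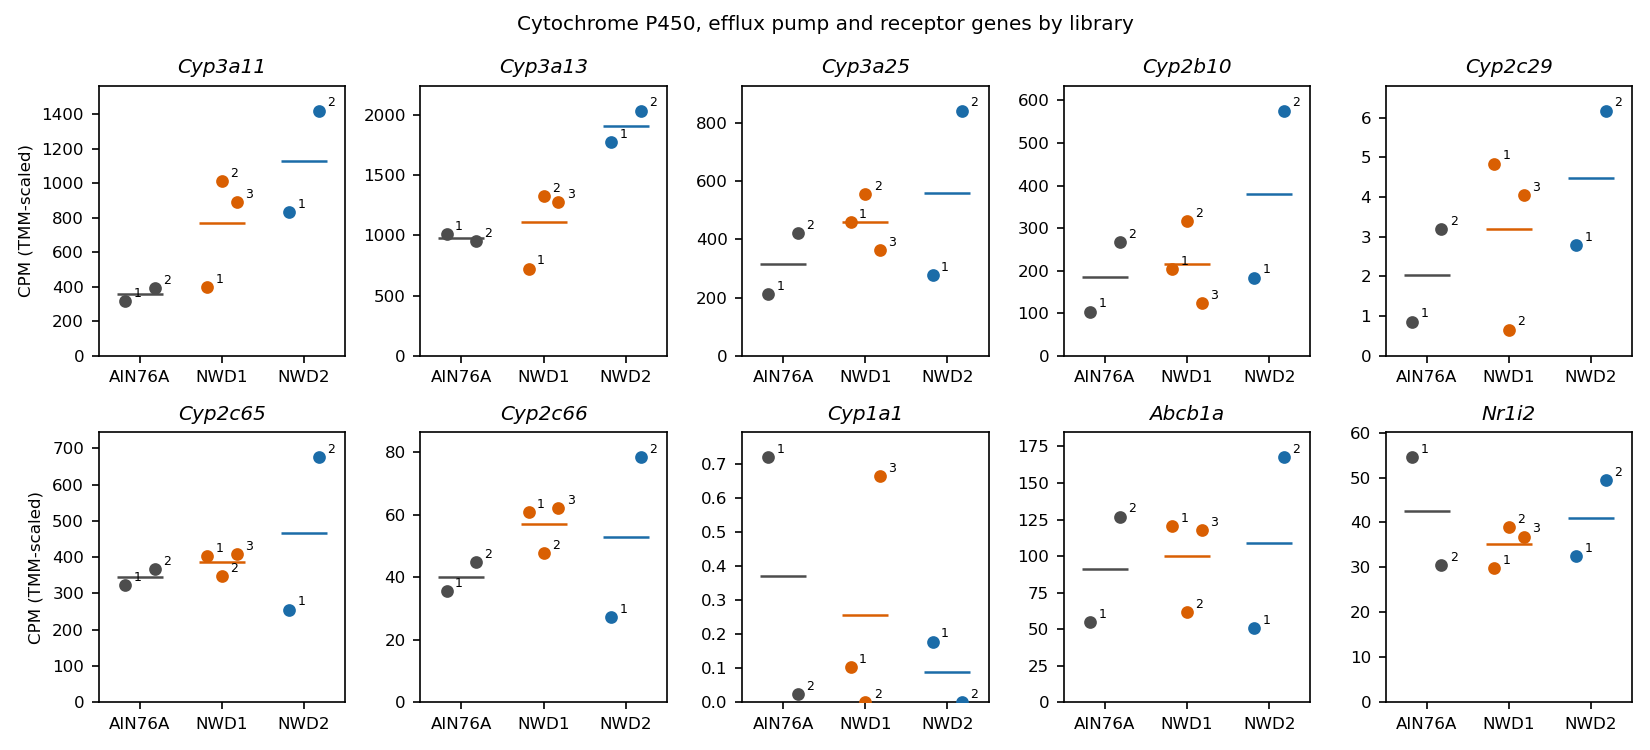
TMM-scaled CPM of each of the 10 genes in 7 libraries, with points numbered by replicate, a line at each diet's mean, and a vertical axis from 0 that differs between panels. Cyp3a11 is lowest in the 2 AIN76A libraries, Cyp3a13 is highest in the 2 NWD2 libraries, and NWD2 replicate 2 is the highest library in 8 of 10 panels.

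NWD2 replicate 2 was the highest of the 7 libraries for 8 of the 10 genes, all but Cyp1a1 and Nr1i2, whereas 23.1% of all genes tested were highest there. AIN76A replicate 1 was the highest for those 2 and the lowest for Cyp3a11, Cyp3a25 and Cyp2b10. NWD2 replicate 1, of the same diet as the library that was mostly highest, was the lowest for Cyp2c65, Cyp2c66 and Abcb1a.

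The Cyp3a enzymes oxidise many drugs, steroids and bile acids, and the 3 genes all lie on chromosome 5. The bases before their start sites are shown because Cyp3a11 and Cyp3a13 had both NWD2 libraries above both controls, while Cyp3a25 varied with single libraries. Each is the 250 bases upstream of the RefSeq start in build GRCm38.p6, on the minus strand of chromosome 5, written 5′ to 3′, with motif matches in capitals. The windows are chr5:145879855-145880104 for Cyp3a11, chr5:137921620-137921869 for Cyp3a13 and chr5:146009619-146009868 for Cyp3a25, the first of 2 entries of that gene.
Cyp3a11: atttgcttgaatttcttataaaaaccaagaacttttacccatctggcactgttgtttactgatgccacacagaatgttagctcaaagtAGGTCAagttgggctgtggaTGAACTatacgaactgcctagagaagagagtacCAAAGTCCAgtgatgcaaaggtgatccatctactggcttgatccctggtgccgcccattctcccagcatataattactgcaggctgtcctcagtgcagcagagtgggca
Cyp3a13: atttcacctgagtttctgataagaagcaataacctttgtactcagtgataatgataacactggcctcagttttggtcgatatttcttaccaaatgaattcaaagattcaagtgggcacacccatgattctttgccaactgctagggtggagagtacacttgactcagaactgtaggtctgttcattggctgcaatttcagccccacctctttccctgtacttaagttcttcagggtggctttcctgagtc
Cyp3a25: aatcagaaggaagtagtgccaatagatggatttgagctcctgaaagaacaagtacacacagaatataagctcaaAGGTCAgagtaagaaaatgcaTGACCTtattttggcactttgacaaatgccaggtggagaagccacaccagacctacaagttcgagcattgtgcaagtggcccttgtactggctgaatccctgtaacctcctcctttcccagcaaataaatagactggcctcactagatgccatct

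Motifs searched on both strands were AGGTCA and AGTTCA, half-sites that nuclear receptors such as the pregnane X and vitamin D receptors bind in pairs, CAAAGTCCA, a site of the enterocyte and liver factor HNF4, and GCGTG, the core bound by the aryl hydrocarbon receptor. The Cyp3a11 window held AGGTCA 162 bases and CAAAGTCCA 109 bases upstream of the start, and AGTTCA on the other strand at 142 bases. In the Cyp3a25 window AGGTCA stood once on each strand, 176 and 155 bases upstream. No match to any of the 4 lay in the Cyp3a13 window. Among 32851 windows of the same length, 14% held AGGTCA, 11.8% AGTTCA, 0.384% CAAAGTCCA and 28.2% GCGTG. The Cyp3a11 window was identical to that of Cyp3a13 at 53.5% and to that of Cyp3a25 at 52.7% of aligned columns.

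Cyp3a11 (ENSMUSG00000056035.7), the main inducible Cyp3a enzyme of mouse liver and gut, had 319.5 and 392 CPM in AIN76A replicates 1 and 2, 399.7, 1012 and 889 CPM in NWD1 replicates 1, 2 and 3, and 834 and 1421 CPM in NWD2 replicates 1 and 2. Both controls lay below all 5 other libraries, although NWD1 replicate 1 exceeded the higher control by little, and the NWD1 and NWD2 libraries overlapped. The means of AIN76A, NWD1 and NWD2 were 356 ± 51.2, 767 ± 324 and 1128 ± 415 CPM (SD, n = 2, 3 and 2). The fitted log2 fold change with NWD1 was 1.11 (SE 0.44; edgeR adjusted p = 0.878), and with NWD2 it was 1.66 (SE 0.47; edgeR adjusted p = 0.955). Between NWD2 and NWD1 it was 0.56 (SE 0.42; edgeR adjusted p = 0.759), and 0.13 without NWD2 replicate 2. Unadjusted, the p-values of the 2 comparisons with AIN76A were 0.0310 and 0.00624, ranks 233 and 93 of all genes tested. The NWD1 p-value was under 0.05 in 8 of 15 alternatives, and was 0.144 and 0.0680 without AIN76A replicates 1 and 2, 0.0999 and 0.0743 without NWD1 replicates 2 and 3, and 0.0543, 0.0749 and 0.101 with a replicate block, an i5 term or a sex term. The NWD2 p-value was under 0.05 in 14 of 15, all but the i5 term (0.125). In both of these the difference kept its direction in all 15 alternatives, with log2 fold changes from 0.85 to 1.42 with NWD1 and from 1.23 to 1.96 with NWD2. One alternative made a call, since without a filter on low counts the NWD2 value of 1.69 had an edgeR adjusted p of 0.00454. Over all alternatives its adjusted p ranged from 0.00454 to 1. Paneth cell markers also differed in the comparisons with AIN76A, at 27337 and 40178 summed CPM in the controls and at most 21636 elsewhere, and their part in the Cyp3a11 difference was not tested.

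Cyp3a13 (ENSMUSG00000029727.7), the Cyp3a gene typical of mouse intestine, had 1009 and 953 CPM with AIN76A, 724, 1324 and 1277 CPM with NWD1, and 1775 and 2033.5 CPM with NWD2. Both NWD2 libraries lay above the other 5, while the NWD1 libraries lay on either side of the controls. Means were 981 ± 39.4, 1109 ± 334 and 1904 ± 183 CPM (SD, n = 2, 3 and 2). The fitted log2 fold change with NWD2 was 0.96 against AIN76A (SE 0.36; unadjusted p = 0.0270, edgeR adjusted p = 0.996) and 0.78 against NWD1 (SE 0.33; unadjusted p = 0.0395, edgeR adjusted p = 0.607). Without NWD2 replicate 2 these were 0.86 and 0.69. The unadjusted p-values stayed under 0.05 in 10 and 6 of 15 alternatives. The highest edgeR unadjusted p-values among them were 0.337 against AIN76A and 0.274 against NWD1. An i5 term gave the lowest fold change against AIN76A, 0.64. With a library left out the fold changes were 0.86 to 1.01 against AIN76A and 0.55 to 0.93 against NWD1. With NWD1 against AIN76A the value was 0.18 (SE 0.33). Enteroendocrine markers separated the same libraries, at 473 and 672 summed CPM with NWD2 and 1731 to 2285 elsewhere, as did tuft cell markers, at 63.1 and 73.8 against 113 to 321, and the part of either in the Cyp3a13 difference was not tested.

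Cyp3a25 (ENSMUSG00000029630.9), a further member of the family, had 212 and 421 CPM with AIN76A, 458, 555 and 364 CPM with NWD1, and 278 and 843 CPM with NWD2. The lowest and the highest NWD2 library spanned nearly the whole range, and the diets overlapped in every comparison. Its fitted log2 fold changes were 0.54 (SE 0.48) with NWD1, 0.82 (SE 0.53) with NWD2 against AIN76A and 0.29 (SE 0.47) with NWD2 against NWD1. Without NWD2 replicate 2 the last 2 became -0.19 and -0.72, and scaling by library size alone made the last -0.04.

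The share of Cyp3a11 relative to Cyp3a13 does not depend on how libraries are scaled, and was looked at after the values were seen. Counts of Cyp3a11 per count of Cyp3a13 were 0.317 and 0.411 with AIN76A, 0.552, 0.764 and 0.696 with NWD1, and 0.470 and 0.699 with NWD2. Both controls had the lowest ratios. How far reads could be shared with related genes was measured as the share of 50-base stretches of a gene's transcripts that also occur in another gene's transcripts. It was 0% for Cyp3a13, 6.73% for Cyp3a11 and 26.8% for Cyp3a25, of which 25.2% were shared with Cyp3a59, so that Cyp3a25 counts are the less certain. Cyp3a59 had 0.930 to 1.49 CPM, far below Cyp3a25.

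Of the 6 other Cyp3a genes looked up, 2 had enough counts to be tested, Cyp3a44 and Cyp3a59, and neither passed the test in any comparison. With NWD1 both had fold changes below 0, with NWD2 against AIN76A 1 was above and 1 below 0, and with NWD2 against NWD1 both were above 0. Cyp3a44, named here after its values were seen, had 3.10 and 0.846 CPM with AIN76A, 0.683, 3.09 and 0.465 CPM with NWD1 and 13.0 and 4.52 CPM with NWD2. Both NWD2 libraries were the highest for it, as they were for Cyp3a13, at levels far lower. Its log2 fold change with NWD2 against NWD1 was 2.56 (SE 0.83; edgeR adjusted p = 0.532).

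**Figure D3:**
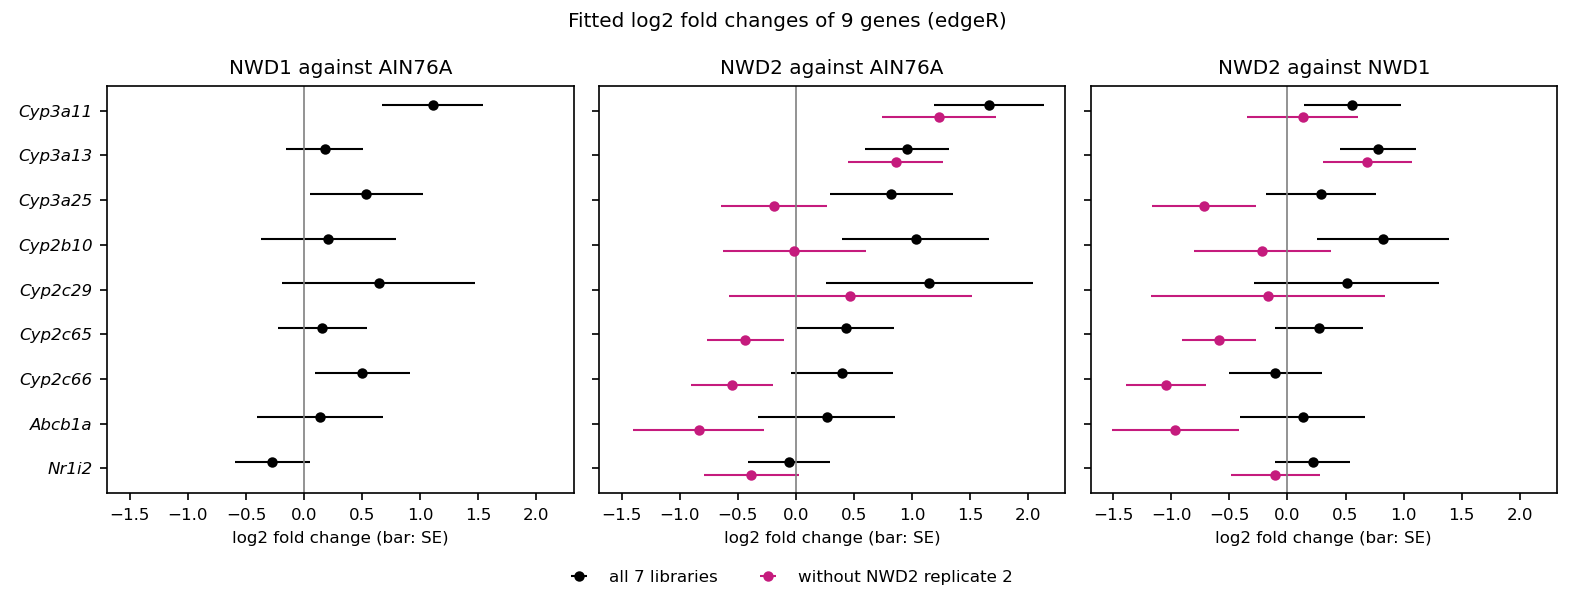
Fitted edgeR log2 fold changes with SE bars for 9 genes in the 3 comparisons, from all 7 libraries in black and without NWD2 replicate 2 in magenta, the latter drawn only for comparisons with NWD2. Cyp1a1, at near 0 counts, is left out. Cyp3a11 and Cyp3a13 stay above 0 without that library, while Cyp3a25, Cyp2b10, Cyp2c65 and Abcb1a cross to below 0 in both NWD2 comparisons.

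The Cyp2b and Cyp2c genes overlapped between diets in every comparison but one, that of Cyp2c66 with NWD1. Cyp2b10 (ENSMUSG00000030483.8), the textbook target of the constitutive androstane receptor, had 104 and 268 CPM with AIN76A, 205, 316 and 124 CPM with NWD1, and 184 and 576 CPM with NWD2. The libraries of 1 diet thus differed more than the diets. Fitted log2 fold changes were 0.21 (SE 0.58) with NWD1, 1.03 (SE 0.64) with NWD2 against AIN76A and 0.82 (SE 0.57) with NWD2 against NWD1, and without NWD2 replicate 2 the last 2 were -0.01 and -0.22. Of its 50-base stretches, 8.7% also occur in other genes, mostly in Cyp2b13.

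Cyp2c29 (ENSMUSG00000003053.9) was barely present, with 0.864 and 3.19 CPM with AIN76A, 4.84, 0.662 and 4.05 CPM with NWD1, and 2.79 and 6.18 CPM with NWD2. These come from 46 to 384 counts per library, and the diets overlapped. Its fitted log2 fold changes of 0.64 (SE 0.83), 1.15 (SE 0.89) and 0.51 (SE 0.80), in the order NWD1 and NWD2 against AIN76A and NWD2 against NWD1, had SEs near or above their size.

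Cyp2c65 and Cyp2c66, neighbouring genes on chromosome 19 whose enzymes oxidise arachidonic acid and other fatty acids, followed each other closely. The 250 bases before their RefSeq starts are shown because the 2 genes had like patterns at very unlike levels. Both lie on the plus strand in build GRCm38.p6, at chr19:39060756-39061005 and chr19:39113648-39113897, with motif matches in capitals.
Cyp2c65: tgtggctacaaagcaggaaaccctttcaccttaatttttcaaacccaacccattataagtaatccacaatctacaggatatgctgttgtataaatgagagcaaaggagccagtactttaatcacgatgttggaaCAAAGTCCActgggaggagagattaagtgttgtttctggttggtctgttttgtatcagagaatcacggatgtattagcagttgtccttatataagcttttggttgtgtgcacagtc
Cyp2c66: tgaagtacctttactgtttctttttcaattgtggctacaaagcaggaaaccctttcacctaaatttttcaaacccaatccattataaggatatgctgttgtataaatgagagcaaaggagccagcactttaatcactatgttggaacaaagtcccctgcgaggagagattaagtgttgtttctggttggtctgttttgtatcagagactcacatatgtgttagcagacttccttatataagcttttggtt

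These windows were identical at 74.6% of 279 aligned columns. The Cyp2c65 window held CAAAGTCCA, the HNF4 site found in 0.384% of all windows, 116 bases upstream, and the Cyp2c66 window held none of the 4 motifs. Among the remaining windows, not shown, AGGTCA occurred in that of Cyp2c29, AGTTCA in that of Abcb1a, GCGTG at 2 places in that of Cyp2b10 and at 1 place in that of Cyp1a1, and none of them in that of Nr1i2. A match is a run of letters and was not tested for binding.

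Cyp2c65 (ENSMUSG00000067231.4) had 324 and 368 CPM with AIN76A, 403, 347 and 408 CPM with NWD1, and 255 and 676 CPM with NWD2. The 2 NWD2 libraries were the lowest and the highest of all 7, with the other 5 close together between them. Cyp2c66 (ENSMUSG00000067229.3) had 35.5 and 44.95 CPM with AIN76A, 60.9, 47.7 and 62.3 CPM with NWD1, and 27.4 and 78.5 CPM with NWD2, again with the NWD2 libraries at the ends. All 3 NWD1 libraries lay above both controls for Cyp2c66, at a fitted log2 fold change of 0.50 (SE 0.41; edgeR adjusted p = 0.878), and for Cyp2c65 the value was 0.16 (SE 0.38). With NWD2 against AIN76A the values were 0.43 (SE 0.42) for Cyp2c65 and 0.40 (SE 0.44) for Cyp2c66, and without NWD2 replicate 2 they were -0.43 and -0.55. With NWD2 against NWD1 they were 0.27 (SE 0.38) and -0.10 (SE 0.40).

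Counts of Cyp2c65 per count of Cyp2c66, looked at after the values were seen, were 9.12 and 8.19 with AIN76A, 6.61, 7.27 and 6.55 with NWD1, and 9.31 and 8.60 with NWD2. The 3 NWD1 libraries had the lowest ratios and the other 2 diets overlapped. Some 20.2% of the 50-base stretches of Cyp2c65 also occur in Cyp2c66, and how the authors' counting treated reads from them is not given in the sources used here, so the ratio is uncertain. Of the 32 other Cyp1 and Cyp2 genes listed, 16 were tested and none passed in any comparison. With NWD1, 7 were higher and 9 lower, with a median log2 fold change of -0.23. The counts were 9 and 7 with NWD2 against AIN76A (median 0.23) and 11 and 5 with NWD2 against NWD1 (median 0.32), beside medians of 0.01, -0.03 and 0.05 over all genes tested. Cyp2c55, a further inducible Cyp2c gene of the gut, had 22.5 and 60.1 CPM with AIN76A, 59.8, 50.4 and 47.7 CPM with NWD1 and 8.66 and 85.6 CPM with NWD2, the same split of the NWD2 libraries as in Cyp2c65. Cyp2d22 and Cyp2j6 had the largest positive values of the list with NWD2 against NWD1 at 5 CPM or more, 0.75 (SE 0.35) and 0.61 (SE 0.26).

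Cyp1a1 (ENSMUSG00000032315.5), which oxidises polycyclic aromatic compounds, was near absent. It had 40 and 1 counts with AIN76A, 5, 0 and 10 with NWD1 and 13 and 0 with NWD2. A count of 0 allows up to 0.0432 CPM in NWD1 replicate 2 and up to 0.0483 CPM in NWD2 replicate 2, counting error only. AIN76A replicate 1 held more counts than the other 6 libraries together, so that at this depth no difference between diets was detectable, and the fitted log2 fold changes of -0.92 (SE 1.74), -2.02 (SE 1.89) and -1.10 (SE 1.89) are smaller than or close to their SEs. Its receptor was present, with Ahr at 6.16 and 9.58 CPM with AIN76A and at 10.6, 11.6 and 16.4 CPM with NWD1. All 3 NWD1 libraries lay above both controls for Ahr, at a log2 fold change of 0.71 (SE 0.36; edgeR adjusted p = 0.878). Of the 9 textbook targets of this receptor, 5 were tested, Cyp1a1 among them, and none passed. In each comparison 2 were higher and 3 lower, with medians of -0.13, -0.15 and -0.45. Tiparp, a target that modifies proteins with ADP-ribose, had values of 0.80 (SE 0.46) with NWD1, -0.15 (SE 0.49) with NWD2 against AIN76A and -0.94 (SE 0.46) with NWD2 against NWD1.

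Abcb1a (ENSMUSG00000040584.8), the main intestinal P-glycoprotein gene, had 54.8 and 127 CPM with AIN76A, 121, 61.7 and 118 CPM with NWD1, and 50.8 and 168 CPM with NWD2. Its libraries fell into 3 low and 4 high ones, and each diet had libraries of both kinds. Means were 90.9 ± 51.05, 99.9 ± 33.2 and 109 ± 82.6 CPM (SD, n = 2, 3 and 2), with fitted log2 fold changes of 0.14 (SE 0.54), 0.27 (SE 0.59) and 0.13 (SE 0.54) for NWD1 and NWD2 against AIN76A and NWD2 against NWD1. Without NWD2 replicate 2 the last 2 were -0.84 and -0.97. Of its 50-base stretches 16.3% also occur in Abcb1b, whose own counts were 0 to 7 per library.

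Of the 26 other drug and bile acid transporters listed, 21 were tested and none passed. More were higher than lower in each comparison. With NWD1 it was 14 against 7 (median log2 fold change 0.10). With NWD2 it was 16 against 5 both compared with AIN76A (median 0.38) and compared with NWD1 (median 0.29). Over all genes tested, 50.6%, 47.4% and 53.5% were above 0, with medians of 0.01, -0.03 and 0.05. The counts of this list were not repeated without NWD2 replicate 2. Abcc3, an efflux pump of the basolateral membrane, had 69.7 and 193 CPM with AIN76A, 97.5, 101 and 224 CPM with NWD1, and 84.1 and 391 CPM with NWD2. Slc47a1, an exporter of organic cations, had its largest value with NWD2 against AIN76A, 1.21 (SE 0.42; unadjusted p = 0.0171, edgeR adjusted p = 0.996).

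Nr1i2 (ENSMUSG00000022809.4), encoding the pregnane X receptor, had 54.6 and 30.6 CPM with AIN76A, 29.9, 39.0 and 36.8 CPM with NWD1, and 32.5 and 49.4 CPM with NWD2. It varied least of the 10, 1.83-fold between its highest and its lowest library, and the diets overlapped. Fitted log2 fold changes were -0.27 (SE 0.32) with NWD1, -0.06 (SE 0.35) with NWD2 against AIN76A and 0.22 (SE 0.32) with NWD2 against NWD1. The library highest for Nr1i2, AIN76A replicate 1, was the lowest for 3 of the P450 genes.

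Its partners and related receptors were a list of their own. Of 20 receptors and cofactors listed, 18 were tested and none passed, with 10 higher and 8 lower with NWD1 (median 0.11), 14 and 4 with NWD2 against AIN76A (median 0.17) and 10 and 8 with NWD2 against NWD1 (median 0.15). Nr1i3, the constitutive androstane receptor, had 34.1 to 55.4 CPM and Rxra, the shared partner, 30.4 to 50.4 CPM. Hnf4a, the factor of the CAAAGTCCA site, had 278 and 351 CPM with AIN76A, 244, 262 and 362 CPM with NWD1, and 416 and 471 CPM with NWD2. Both NWD2 libraries were the highest for Hnf4a, at log2 fold changes of 0.50 (SE 0.31; edgeR adjusted p = 0.996) against AIN76A and 0.62 (SE 0.28; edgeR adjusted p = 0.647) against NWD1. A part of Hnf4a in the differences of the 10 genes was not tested.

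The 19 textbook targets of the pregnane X and constitutive androstane receptors include 5 of the 10 genes. Of 18 tested, 14 were higher and 4 lower in each comparison, with medians of 0.25, 0.37 and 0.28, and none passed the test. These counts, like those of every list but the vitamin D receptor targets, were not repeated without NWD2 replicate 2. Over all genes tested, 50.6%, 47.4% and 53.5% were above 0, with medians of 0.01, -0.03 and 0.05. Apart from those already described, Gstm3, which conjugates glutathione, had values of 0.48 (SE 0.41) with NWD1 and -1.01 (SE 0.42; edgeR adjusted p = 0.603) with NWD2 against NWD1. Akr1b7, an aldose reductase, had 1.07 (SE 0.64) with NWD2 against AIN76A. The listed targets thus had values of both signs.

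Cyp3a11 was also 1 of 6 listed vitamin D receptor targets, and its values stand beside theirs. Of the 5 tested, all were higher with NWD1 than with AIN76A, with a median log2 fold change of 1.71, and all 5 had unadjusted p-values under 0.05 and diets that did not overlap, against 2.52% and 11.4% of all genes tested, but none passed the adjusted test (lowest edgeR adjusted p = 0.878). Without NWD1 replicate 2, the single female, all 5 were still higher and 2 had unadjusted p-values under 0.05, and without NWD1 replicate 3 the counts were 5 and 3. Without AIN76A replicate 2, 1 of the 5 had an unadjusted p under 0.05 and the median was 1.26, and without AIN76A replicate 1 it was 3 of 5. S100g, which carries calcium through the enterocyte, had 104 and 39.2 CPM with AIN76A, 225, 384 and 137 CPM with NWD1, and 29.5 and 111 CPM with NWD2. Slc30a10, an exporter of manganese, had 16.5 and 18.7 CPM with AIN76A, 32.5, 86.3 and 53.8 CPM with NWD1, and 22.1 and 44.1 CPM with NWD2. For S100g all 3 NWD1 libraries lay above those of the other diets. Slc30a10 and Atp2b1, the calcium pump, had their highest library with NWD1, but their NWD1 and NWD2 libraries overlapped. Atp2b1 had 118 to 190 CPM with NWD1 and 83.2 to 129 CPM in the other diets. With NWD2 against NWD1, 4 of the 5 were lower and 1, Cyp3a11, was higher, with a median of -0.80 against 0.05 over all genes. Of these, 2 were lower at an unadjusted p under 0.05 and without overlap, against 6.75% and 14.5% of genes, namely S100g at -1.82 (SE 0.67; edgeR adjusted p = 0.548) and Trpv6, the apical calcium channel, at -5.17 (SE 1.65; edgeR adjusted p = 0.532). Trpv6 had 0 to 18 counts per library apart from 759 in NWD1 replicate 2, so its values rest on that library. Without NWD1 replicate 2, 0 of the 5 had an unadjusted p under 0.05 and the median was -0.53, and without NWD2 replicate 1 these were 0 and -0.43, while without NWD2 replicate 2 they were 3 and -1.37. With NWD2 against AIN76A 4 of the 5 were higher, with a median of 0.91, which was 0.28 without AIN76A replicate 2, 0.59 without NWD2 replicate 1 and 0.33, with 3 of 5 higher, without NWD2 replicate 2. Cyp24a1, which degrades vitamin D and was not tested, had 3 counts in 1 library and 0 in the others, and Vdr itself had 397 to 720 CPM.

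**Figure D4:**
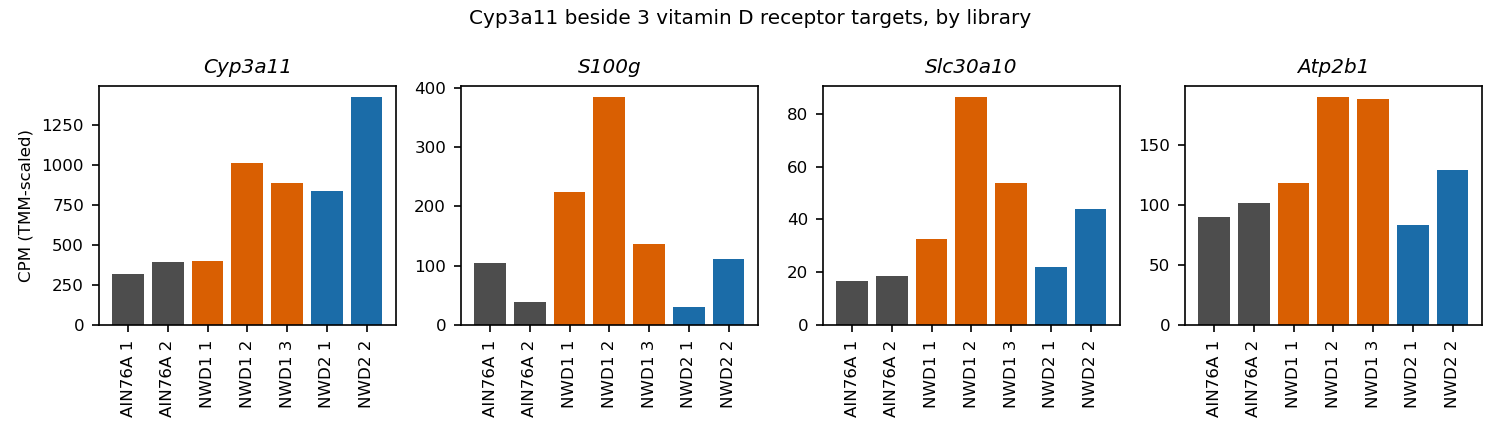
TMM-scaled CPM of Cyp3a11 and of 3 other vitamin D receptor targets as bars from 0, in 7 libraries coloured by diet, with a vertical axis that differs between panels. S100g, Slc30a10 and Atp2b1 have their highest library with NWD1, at 384, 86.3 and 190 CPM, while Cyp3a11 is highest in NWD2 replicate 2, at 1421 CPM.

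Likeness of variation over the 7 libraries was measured for pairs of the genes, as Pearson r of log2 CPM. The points share libraries and scaling, so r is a description. The closest pairs were Cyp2c65 with Cyp2c66 at 0.92, Cyp3a25 with Cyp2b10 at 0.91, Cyp2c66 with Abcb1a at 0.87 and Cyp3a11 with Cyp3a13 at 0.85. Cyp3a13, by contrast, had r of -0.06 with Abcb1a and 0.00 with Cyp2c66. The most negative values were -0.94 for Cyp2b10 and -0.82 for Cyp3a25, both with the near-absent Cyp1a1. Nr1i2 reached at most 0.37, with Cyp3a13. Among 7076 genes with a mean of 10 CPM or more, the 5 most like Cyp3a13 were Rnf185, Rbbp5, Siae, Rela and Zfp110, with r from 0.96 to 0.99. Those most like Abcb1a were Aldh1a1, which oxidises retinal, and the carboxylesterase Ces1f, both at 0.97, and Slc25a34, Chpf2 and Spag5 at 0.95 to 0.96. Those most like Nr1i2 were Ift172, Dgcr14, Dennd2d, Gstp2 and Ush1c, from 0.92 to 0.96.

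Absorptive enterocyte markers moved with some of the genes. None of the 20 was at 0 in any library, and their sum was 52949 and 64648 CPM with AIN76A, 58692, 77706 and 58926 CPM with NWD1, and 58181 and 123804 CPM with NWD2. The library with the highest sum, NWD2 replicate 2, was also the one highest for 8 of the 10 genes. NWD2 replicate 1 had a sum between those of the controls, with 834 CPM of Cyp3a11 and 1775 CPM of Cyp3a13, both above the 2 controls. Per 1000 CPM of these markers, Cyp3a11 had 6.03 and 6.06 CPM with AIN76A, 6.81, 13.0 and 15.1 CPM with NWD1, and 14.3 and 11.5 CPM with NWD2, so that the controls remained the lowest. On the same scale Cyp3a13 had 19.1 and 14.7 CPM with AIN76A, 12.3, 17.0 and 21.7 CPM with NWD1, and 30.5 and 16.4 CPM with NWD2, and the diets overlapped. Cyp2b10 had 1.96 and 4.15 CPM with AIN76A, 3.49, 4.07 and 2.11 CPM with NWD1, and 3.16 and 4.65 CPM with NWD2, with overlap again. The marker sum weighs abundant genes most, such as Apoa1 and Apoa4, at 20087 and 19947 CPM in NWD2 replicate 2. The ratio is thus not a measure per enterocyte. This ratio was chosen after the values were seen, and the part of cell composition in these differences was not tested.

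**Figure D5:**
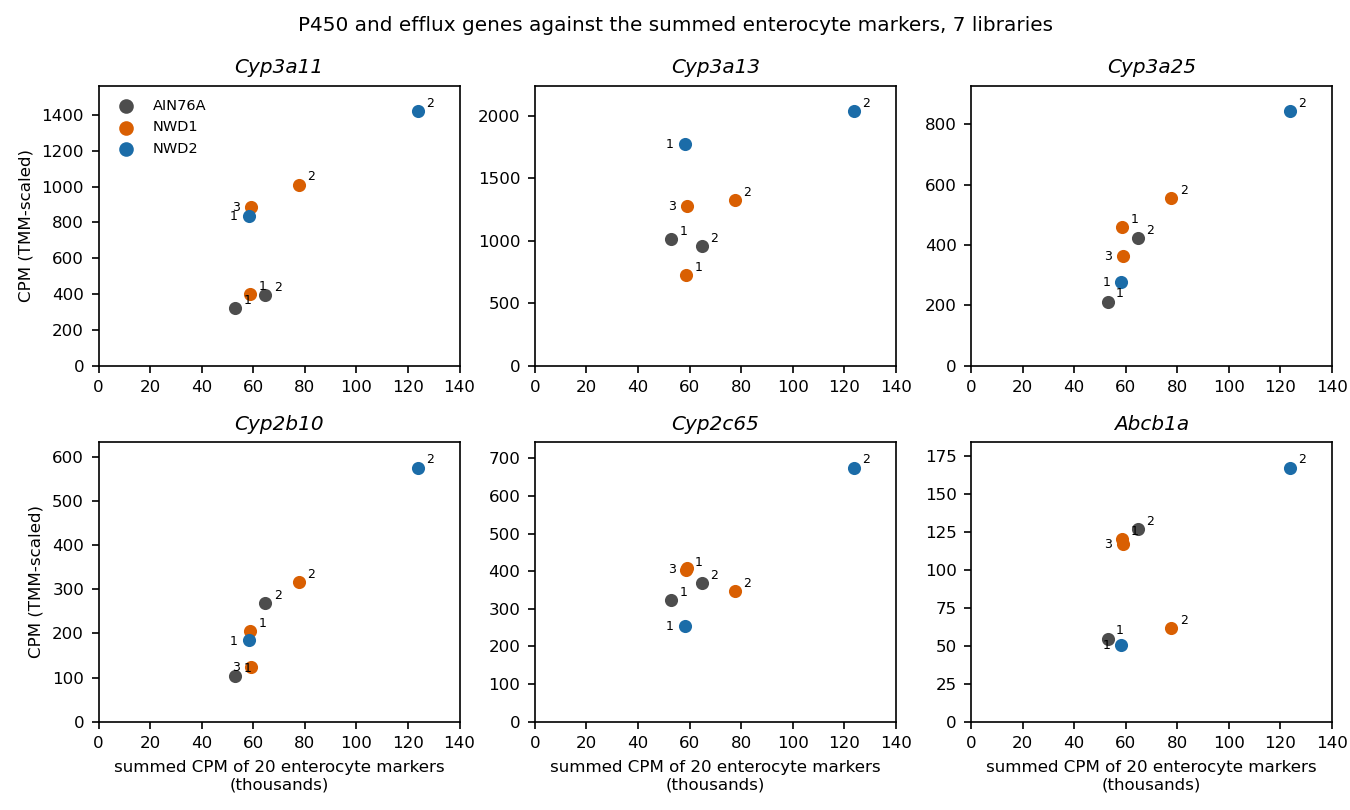
TMM-scaled CPM of 6 genes against the summed CPM of 20 enterocyte markers in units of 1000, 1 point per library, numbered by replicate and coloured by diet, with a vertical axis that differs between panels. NWD2 replicate 2 lies alone at the right, at 123804 summed CPM, and among the 6 libraries at the left Cyp3a11 spans 319.5 to 1012 CPM.

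Genes that serve the P450 enzymes had fold changes of both signs. Of the 16 genes of electron transfer and haem synthesis, all tested, none passed, with 6 higher and 10 lower with NWD1 (median -0.06), 7 and 9 with NWD2 against AIN76A (median -0.05) and 9 and 7 with NWD2 against NWD1 (median 0.20). Por, the reductase of all these P450s, had 211 and 424 CPM with AIN76A, 400.4, 414 and 352 CPM with NWD1, and 234 and 824 CPM with NWD2, with the NWD2 libraries split as for Cyp3a25 and Cyp2b10. Cpox, of haem synthesis, had 14.997 and 18.4 CPM with AIN76A, 29.2, 30.0 and 31.9 CPM with NWD1, and 15.3 and 7.18 CPM with NWD2. All 3 NWD1 libraries were above the rest, at log2 fold changes of 0.86 (SE 0.34; edgeR adjusted p = 0.878) against AIN76A and, for NWD2 against NWD1, -1.43 (SE 0.35; edgeR adjusted p = 0.477).

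Of the 18 P450 genes of fatty acids, sterols and vitamin D, 13 were tested and none passed. With NWD1, 9 were higher and 4 lower (median 0.11), with NWD2 against AIN76A 10 and 3 (median 0.37), and with NWD2 against NWD1 9 and 4 (median 0.25). Cyp27a1, a sterol and vitamin D hydroxylase, had 18.2 and 21.9 CPM with AIN76A, 14.5, 46.9 and 31.5 CPM with NWD1, and 95.9 and 38.8 CPM with NWD2. Both NWD2 libraries exceeded both controls, at a log2 fold change of 1.75 (SE 0.56; unadjusted p = 0.0121, edgeR adjusted p = 0.996). Cyp51, of cholesterol synthesis, was lowest in the 3 NWD1 libraries, at 53.7 to 84.8 CPM against 105 to 190 CPM in the others, with -0.78 (SE 0.30; edgeR adjusted p = 0.878) against AIN76A and 1.25 (SE 0.30; edgeR adjusted p = 0.477) for NWD2 against NWD1. Of 44 conjugating and hydrolysing enzymes, 43 were tested and none passed. With NWD1, 18 were higher and 25 lower (median -0.04), and with NWD2 against AIN76A 25 and 18 (median 0.05). With NWD2 against NWD1, 31 were higher and 12 lower (median 0.17), where 53.5% of all genes tested were above 0. Ephx2, the soluble epoxide hydrolase, which acts on the fatty acid epoxides that Cyp2c enzymes make, had a log2 fold change of 1.06 (SE 0.45; unadjusted p = 0.0443, edgeR adjusted p = 0.996) with NWD2 against AIN76A.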

How the data were processed

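Per the labels' protocols, RNA of sorted cells went through SMART-Seq v4 amplification, Nextera XT preparation and paired-end sequencing, which do not mark strand, so antisense reads cannot be told apart. Counts were deposited as integers for each Ensembl gene, and the deposited TPM values allow for gene length. The submitters' processing notes name STAR 2.4.2a, HTSeq 0.6.1, edgeR and build mm9; annotation and filters are not given in the sources used here. Of the TPM table, 1 column that matches no sample was not used.

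Diets were compared by quasi-likelihood F tests of edgeR 4.0.16 under R 4.3.3 (TMM scaling, filterByExpr, robust fit, diet as the only term, all 7 libraries, 4 residual degrees of freedom), two-sided, adjusted by Benjamini-Hochberg over the 14626 genes tested, and called at an adjusted p under 0.05. The SE of a fitted log2 fold change is its size divided by the square root of its quasi-likelihood F statistic. The test was tested on simulated counts of 14626 genes: of genes set to a log2 change of 2, 44.8%, 43.3% and 55.2% were recovered with NWD1 and NWD2 against AIN76A and NWD2 against NWD1, and of those set to 1, 5.97%, 5.97% and 2.99%.

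The 10 genes and all 10 gene lists and 15 marker lists were chosen with earlier results of these data known. The named genes of a list are those called, or up to 3 with the largest change at a mean of 5 CPM or more. Counts of higher and lower genes were repeated under the alternatives for the 10 genes and the vitamin D receptor targets only. Over all genes tested, 50.6%, 47.4% and 53.5% were above 0 with NWD1 and NWD2 against AIN76A and NWD2 against NWD1. All 176 list symbols were found, 3 by a newer name. Promoters come from a RefSeq table of build GRCm38.p6, in which all 10 genes matched, and transcript stretches from a GRCm38 annotation, and coordinates in mm9 are not given. Alternatives were DESeq2 1.42.0 size factors or its Wald test, scaling by library size alone (chosen after the data were seen), no filter, replicate number, i5 index or sex as a term, only the 2 diets compared, and each library left out in turn. Where a diet is left with 1 library, it is assumed to vary like the others. NWD1 replicate 2 is the only female. Both AIN76A libraries carry i5 index N503 and both NWD2 libraries N504, and of the NWD1 libraries only replicate 3 carries N504. An i5 term thus rests on NWD1 replicate 3, whose diet is less certain.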

Additional observations from a re-analysis of the deposited data

How the results depend on the processing

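Over 15 alternatives, 10 of the 30 fold changes of single genes kept their direction throughout, among them those of Cyp3a11 and Cyp3a13 in all 3 comparisons, and 36 of 450 values changed sign. Without a filter on low counts, edgeR called 85 genes for NWD1 and 190 for NWD2 against AIN76A, among the latter 1 of the 10, Cyp3a11, and 384 for NWD2 against NWD1. The DESeq2 Wald test called 1, 52 and 174. With NWD2 against AIN76A, edgeR called 1 gene with a replicate block, 1 with an i5 term and 6 when only the 2 diets were fitted, and with NWD2 against NWD1 it called 2 with an i5 term and 0 to 1 with a library left out. Scaling by library size alone moved the median of all genes by 0.11, -0.12 and -0.24 and the share above 0 with NWD2 to 35.3% against AIN76A and 30.7% against NWD1. It gave, for NWD2 against NWD1, Cyp3a25 -0.045, Cyp2c65 -0.052, Abcb1a -0.21 and Nr1i2 -0.058. The replicate block gave there Cyp3a25 -0.065, Cyp1a1 0.72 and Abcb1a -0.038. Replicate numbers were not taken to pair samples. Deviations from the diet mean correlated at -0.00 to 0.26 in same-numbered libraries and at -0.26 to 0.17 in others. In a diet with 2 libraries these deviations mirror each other, so the values cannot decide whether numbers pair samples. The block called 0 of the 10 genes in each comparison, as did the main fit. An i5 term gave Abcb1a -0.10 with NWD2 against AIN76A and -0.11 against NWD1, and a sex term gave Abcb1a -0.12 there and Cyp2b10 -0.18 with NWD1 against AIN76A.

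With libraries left out in turn, signs changed with NWD1 against AIN76A for Cyp2b10 (-0.32 to 1.05), Cyp2c29 (-0.024 to 1.87), Cyp1a1 (-2.95 to 3.02), Abcb1a (-0.35 to 0.87) and Nr1i2 (-0.63 to 0.20). They changed with NWD2 against AIN76A for Cyp3a25 (-0.19 to 1.41), Cyp2b10 (-0.0115 to 1.88), Cyp2c65 (-0.43 to 0.92), Cyp2c66 (-0.55 to 0.92), Cyp1a1 (-7.23 to 1.81), Abcb1a (-0.84 to 1.003) and Nr1i2 (-0.41 to 0.42). With NWD2 against NWD1 they changed for Cyp3a25 (-0.72 to 0.84), Cyp2b10 (-0.22 to 1.38), Cyp2c29 (-0.17 to 0.99), Cyp2c65 (-0.59 to 0.77), Cyp2c66 (-1.05 to 0.43), Cyp1a1 (-6.36 to 0.93), Abcb1a (-0.97 to 0.71) and Nr1i2 (-0.11 to 0.45). The causes of these changes were not tested. Depth limits Cyp1a1 alone, at 40 counts or fewer per library.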
